A study of Homo sapiens with 8 samples.

Results

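The immediate early transcription factors examined here were 10 genes, FOS, FOSB, FOSL1, FOSL2, JUN, JUNB, EGR1, IER2, IER3 and MYC, followed in MRC5 cells, a line of human diploid lung fibroblasts. A gene was taken with every probe set that the platform annotation gave that single symbol. This gave 10 of 8746 probe sets on the 12 h arrays, 1 for each gene, and 16 of 22215 on the larger 6 h arrays, where JUN had 4, FOSL2 had 3 and EGR1 had 2. The cells received 10 µM 8-oxoguanine, which is guanine in oxidised form as a free base, or solvent alone as mock treatment. At 6 h there was 1 treated and 1 mock array, and at 12 h there were 3 treated and 3 mock arrays. The labels call the 12 h arrays technical replicates by extract, and they name no separate cultures. The p-values therefore cover no more than the spread between extracts, which may be technical. The treatment protocol names 6 h for all samples, whereas the time label gives 12 h for 6 of them and was followed.

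Immediate early genes are transcribed within minutes of a growth factor or stress signal without new protein synthesis, and their messages are short-lived. In fibroblasts the ERK branch of the MAP kinases acts on ELK1 and serum response factor, which drive FOS and EGR1, while JNK acts on JUN. FOS and JUN family proteins pair through leucine zippers to form AP-1, EGR1 binds DNA through zinc fingers, and MYC pairs with MAX. The comparison bears on signalling because OGG1 bound to the free base is described as an activator of RAS GTPases, which lie upstream of these genes. IER2 and IER3 are early response genes as well, but IER3 encodes a small stress-induced protein that modulates survival signalling and is not known as a DNA-binding factor.

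The signals were MAS5 intensities with array medians between 143 and 165. Of 11 fibroblast markers 9 were on the 12 h arrays, all 9 above the signal filter, with summed signals of 61470 to 75523 on treated arrays and 62423 to 75867 on mock arrays. At 6 h all 11 were above the filter, and their sum was 104243 on the treated and 57833 on the mock array, while the epithelial sum was 3735 and 2787. The part of these sums in the 6 h ratios was not tested. The epithelial markers EPCAM and CDH1 averaged 10.5 and 7.10 in treated cells and 17.6 and 10.8 in mock cells, under the filter limit of 93.9, while KRT18 averaged 3943 and 3639, KRT8 165 and 116, and KRT19 116 and 277. The summed epithelial list ran at 4136 to 4438 on treated and 4018 to 4207 on mock arrays, and its part in the results was not tested. Of 5 endothelial and 3 blood markers on the array 1 each passed the filter, and of 3 muscle markers none. At 12 h the 3'/5' signal ratio of the actin control was 1.03, 1.07 and 0.999 on the treated and 0.995, 0.889 and 0.946 on the mock arrays, without overlap. For the GAPDH control it was 0.805, 0.802 and 0.843 on the treated and 0.779, 0.826 and 0.804 on the mock arrays, with overlap. The part of these ratios in the results was not tested. In cultured cells read in bulk, fewer cells of a type and less RNA per cell cannot be told apart.

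At 12 h, 2 of the 10 genes fell and none rose in limma's test, where FOS alone was higher at an unadjusted p under 0.05. IER3 had 55.6% of its mock signal and FOSL1 had 68.0%. FOS, FOSB, FOSL2, JUN, JUNB, EGR1, IER2 and MYC did not pass the threshold of an adjusted p of 0.05, and their log2 fold changes lay between -0.15 and 0.22. All 10 probe sets passed the filter on dim signals and were tested. Over all 5248 probe sets tested, 13.2% passed in either direction, 6.59% as higher and 6.65% as lower, and nothing particular to the group is read from 2 calls among 10. The median log2 fold change of the 10 was -0.04, against 0.01 over all probe sets tested.

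IER3 was the most changed of the group. Its signal was 1585, 1602 and 1438 on the treated arrays, against 2849, 2392 and 3072 on the mock arrays. Every treated array lay below every mock array, and the mock arrays were the more spread. The means were 1542 ± 90.2 in treated cells and 2771 ± 347 in mock cells (SD, n = 3 each), a log2 fold change of -0.84 (SE 0.10, adjusted p in limma = 0.000762), or 1.79-fold lower. The 95% interval ran from -1.06 to -0.62 on the log2 scale.

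FOSL1 encodes FRA-1, a FOS family protein without the transactivation domain of FOS that accumulates later than FOS and is kept up by ERK signalling. Its signal was 767, 619 and 892 on the treated arrays, against 1145, 1103 and 1100 on the mock arrays. The groups did not overlap, and here the treated arrays were the more spread, with replicate 2 lowest. The means were 759 ± 136 in treated cells and 1116 ± 25.2 in mock cells (SD, n = 3 each), a log2 fold change of -0.57 (SE 0.12, adjusted p in limma = 0.0140), or 1.49-fold lower, with a 95% interval from -0.84 to -0.30. Both falls passed the threshold under all 13 alternatives, with adjusted p between 0.000349 and 0.0102 for IER3 and between 0.00670 and 0.0491 for FOSL1.

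**Figure D1:**
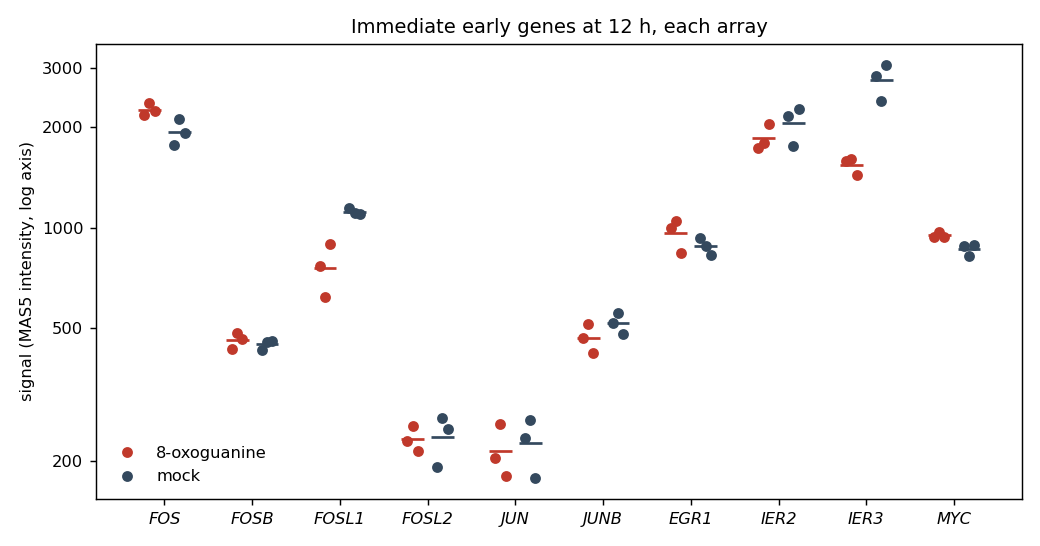
Signal of each gene on each 12 h array (log axis, MAS5 intensity); red points are the 3 arrays of 8-oxoguanine-treated cells, dark points the 3 mock arrays, and short bars the means. The groups are apart for IER3 and FOSL1, lower in treated cells, and narrowly apart for FOS and MYC, higher in treated cells.

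FOS, the founding partner of JUN in AP-1, had signals of 2168, 2365 and 2230 on the treated arrays, against 1767, 2120 and 1914 on the mock arrays. The lowest treated array stood just above the highest mock array. The log2 fold change was 0.22 (SE 0.08), with a 95% interval from 0.04 to 0.41 and an unadjusted p of 0.0220, but the limma adjusted p was 0.104. Without mock replicate 2, the highest of its group, the log2 fold change was 0.29 and the adjusted p 0.0372. The call therefore turned on that 1 array.

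MYC, a basic helix-loop-helix factor of growth and ribosome production, had signals of 938, 971 and 935 on the treated arrays, against 880, 820 and 885 on the mock arrays. The groups did not overlap, yet they lay close together. Its log2 fold change was 0.14 (SE 0.08, adjusted p in limma = 0.263), with an interval from -0.03 to 0.31, or a fold between 0.980 and 1.24. Groups without overlap were found for 4 of the 10 genes, 2 in each direction, and for 33.9% of all probe sets tested, so this count is near the background too.

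EGR1, a zinc-finger activator of growth and matrix genes, had 999, 1049 and 841 on the treated arrays, against 930, 881 and 831 on the mock arrays. The groups overlapped, treated replicate 3 being lower than 2 of the mock arrays. The log2 fold change was 0.12 (SE 0.10, adjusted p in limma = 0.454), with an interval from -0.10 to 0.35. IER2, a nuclear early response protein, had 1728, 1797 and 2041 in treated cells, against 2151, 1759 and 2266 in mock cells. Its groups overlapped as well, and the log2 fold change was -0.15 (SE 0.11, adjusted p in limma = 0.413). JUNB, a JUN family member that can restrain JUN, had 469, 514 and 421 in treated cells, against 520, 555 and 482 in mock cells, with a log2 fold change of -0.15 (SE 0.11, adjusted p in limma = 0.397). The 3 intervals of change did not reach 1.5-fold in either direction, the widest bound being a fold of 0.762 for JUNB.

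The remaining members were FOSB, FOSL2 and JUN. FOSB, a close relative of FOS, had 433, 485 and 465 in treated cells, against 430, 455 and 460 in mock cells, and a log2 fold change of 0.04 (SE 0.09). FOSL2, which encodes FRA-2, had 230, 256 and 215 in treated cells, against 192, 269 and 250 in mock cells, and a log2 fold change of -0.01 (SE 0.16). JUN, the main AP-1 partner of FOS, had 205, 259 and 181 in treated cells, against 235, 266 and 178 in mock cells, and a log2 fold change of -0.07 (SE 0.19). The groups overlapped for all 3 genes. The probe sets of FOSL2 and JUN were the dimmest of the members and the least precisely measured, with intervals from -0.37 to 0.35 and from -0.50 to 0.36. Their sign turned when single arrays were left out. On the 6 h arrays this JUN probe set was the dimmest of the gene's 4.

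**Figure D2:**
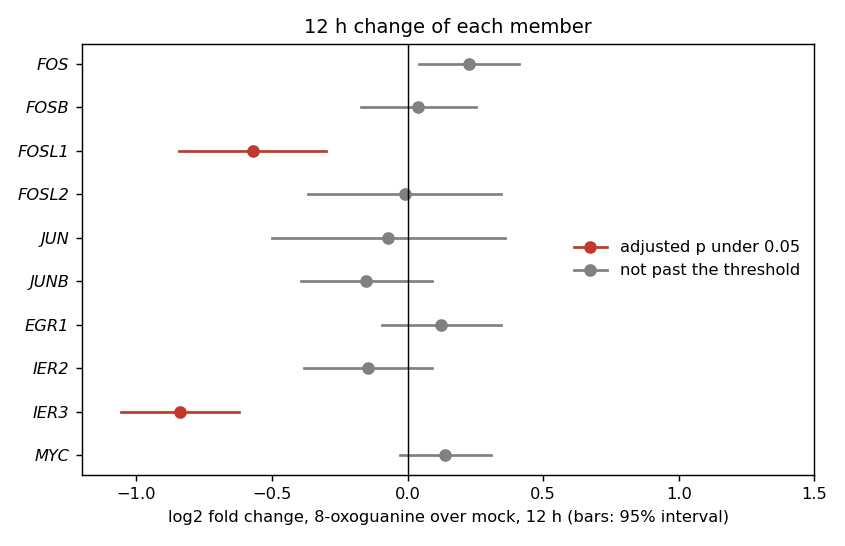
Log2 fold change of each gene at 12 h, 8-oxoguanine over mock (points, 3 arrays per group), with limma's 95% interval (bars); red marks an adjusted p under 0.05. IER3 at -0.84 and FOSL1 at -0.57 lie left of 0, and JUN has the widest interval.

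Promoter sequence shows what the classical members of the group carry next to their start. RefSeq promoters of GRCh38.p14, from 250 bases before to 50 bases after the gene start, were searched for 7 of the members, FOS, FOSB, FOSL2, JUN, JUNB, EGR1 and IER2, on both strands, for 6 motifs. These were the CArG box bound by serum response factor, the cAMP response element TGACGTCA, the AP-1 site TGANTCA, the EGR site GCGNGGGCG, the E-box CACGTG and the TATA box TATAAA. No match found in these 7 promoters overlapped another. FOSL1 and IER3, the members called at 12 h, had no promoter in the sequences used, and MYC was left out. FOS and EGR1 are printed as the genes most used as readouts of ERK and serum response factor, 5′ to 3′ on the strand of the gene, with motif matches in capitals.
FOS, chr14:75278578-75278877, plus strand: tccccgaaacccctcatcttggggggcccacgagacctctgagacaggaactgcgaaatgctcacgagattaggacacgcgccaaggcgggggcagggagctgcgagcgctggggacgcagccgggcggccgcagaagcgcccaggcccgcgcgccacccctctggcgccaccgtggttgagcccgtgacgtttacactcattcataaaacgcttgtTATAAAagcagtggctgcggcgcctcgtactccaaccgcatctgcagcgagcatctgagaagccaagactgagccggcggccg
EGR1, chr5:138465229-138465528, plus strand: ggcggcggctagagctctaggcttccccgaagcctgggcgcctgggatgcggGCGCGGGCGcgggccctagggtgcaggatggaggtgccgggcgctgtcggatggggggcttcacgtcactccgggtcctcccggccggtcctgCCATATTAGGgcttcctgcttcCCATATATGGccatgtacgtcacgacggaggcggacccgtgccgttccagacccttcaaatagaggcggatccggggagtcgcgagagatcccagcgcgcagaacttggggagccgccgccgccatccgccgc
In EGR1 the capitals mark 1 EGR site starting 198 bases before the gene start and 2 CArG boxes starting 105 and 83 bases before it. In FOS they mark a TATA box starting 33 bases before the gene start. TATA boxes were found in 3 of the 7 promoters (FOS, FOSB and JUNB), the CArG box and the EGR site in 1 each (EGR1) and an AP-1 site in 1 (FOSL2). Among 35116 promoters of that length the TATA box was in 11.5%, the CArG box in 1.29%, the EGR site in 9.43%, the AP-1 site in 7.71%, the E-box in 7.26% and the cAMP response element in 1.85%. A match is a description of the letters, and the absence of one in this window says nothing about a factor.

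At 6 h, with 1 array per treatment, there was no replicate check and no test. Of the 16 probe sets 14 passed the filter, set at a signal of 148. None of the 14 differed by 1.5-fold or more, which over 11108 probe sets kept happened for 3.32% as higher and 5.44% as lower on the treated array. A 2-fold difference was reached by 0.378% as higher and 0.963% as lower. The log2 ratio of treated over mock was above 0 for 7 of the 14, against 45.6% of all probe sets kept. Centring each array on its median added 0.12 to every log2 ratio, and 10 of the 14 were then above 0. This shift also took the median over all probe sets kept, -0.03 before it, above 0. After quantile normalization 8 of the 14 were above 0. The shares of all probe sets kept were not counted under these scalings, so no lean of the members is read from these counts.

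Among the members with 1 kept probe set, the largest ratios were those of IER2, IER3, FOS and MYC, in that order. IER2 read 4043 when treated and 2929 in mock cells, so that its log2 ratio was 0.46. IER3 had 2194 on the treated and 1782 on the mock array (0.30), FOS had 1071 and 890 (0.27), and MYC had 2259 and 1889 (0.26). These 4 ratios stayed above 0 with quantile normalization, at 0.37, 0.32, 0.35 and 0.27. The 1885 probe sets brighter than 2000 on at least 1 of the arrays had their median at 0.18, against -0.03 over all kept, so bright probe sets in general stood higher on the treated array. FOSL1 read 2241 when treated and 2128 in mock cells (log2 ratio 0.07).

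JUNB, EGR1 and FOSL2 had ratios below 0. JUNB read 643 when treated and 698 in mock cells (log2 ratio -0.12). EGR1 had 2405 and 2552 for its brighter probe set and 629 and 647 for the other, with log2 ratios of -0.09 and -0.04. Both EGR1 ratios turned above 0 with median centring, at 0.03 and 0.08. FOSL2 was lower on the treated array in each of its 3 probe sets, with 362 against 439, 207 against 255 and, under the filter, 126 against 162, and log2 ratios of -0.28, -0.30 and -0.36. All 3 stayed below 0 with quantile normalization and median centring.

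The 4 probe sets of JUN did not go one way. The brightest had 4194 on the treated and 3665 on the mock array (log2 ratio 0.19) and carries the suffix that marks probes shared with other transcripts. The others had 737 and 891 (-0.27), 661 and 536 (0.30), and 307 and 333 (-0.11). The last, the dimmest, is the JUN probe set of the 12 h arrays. FOSB read 118 when treated and 34.3 in mock cells (log2 ratio 1.78), but both signals were under the filter limit, where MAS5 values are least precise.

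**Figure D3:**
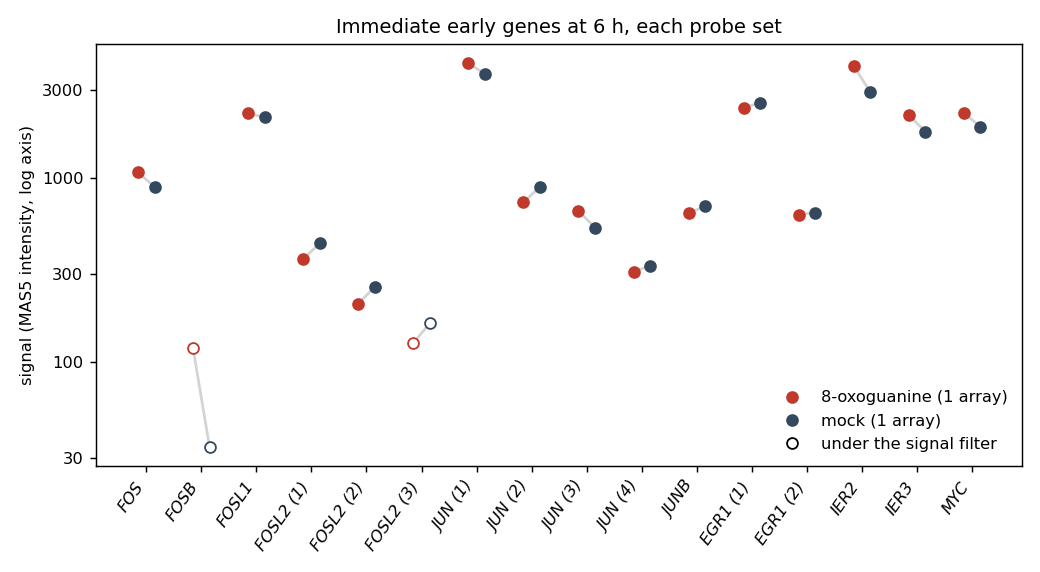
Signal of each probe set of the 10 genes on the treated (red) and mock (dark) 6 h array (log axis, MAS5 intensity, 1 array each), numbered by brightness where a gene has several; open points mark probe sets under the filter. JUN has probe sets in both directions, FOSL2 is lower on the treated array in all 3, and the wide FOSB gap lies between dim signals.

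The same 10 probe sets were present on both array types, but the tables were scaled separately. Since array type and replication changed along with time, no test was made between the times. IER3 had a log2 ratio of 0.30 at 6 h and a log2 fold change of -0.84 at 12 h, and FOSL1 had 0.07 and -0.57. FOS had 0.27 and 0.22, and MYC had 0.26 and 0.14, above 0 at both times. IER2 had 0.46 at 6 h and -0.15 at 12 h. In mock cells the FOSB probe set had 34.3 at 6 h and 448 ± 16.2 (SD, n = 3) at 12 h, and the EGR1 probe set had 2552 and 881 ± 49.3 (SD, n = 3). These levels are set side by side across separately scaled arrays of different types and were not compared.

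Among 22 other immediate early genes tested at 12 h, 5 rose, 3 fell and 14 did not pass, with a median log2 fold change of -0.05. Over all 4670 genes tested with 1 probe set each, 6.49% rose and 6.64% fell, and the median was 0.00500. ATF3, a stress-induced partner of AP-1 proteins, read 519, 508 and 513 in treated cells and 248, 265 and 229 in mock cells, a log2 fold change of 1.06 (SE 0.11, adjusted p in limma = 0.000325). The treated arrays stood well clear of the mock arrays. KLF10, a zinc-finger factor induced early by TGF-beta, had 575, 611 and 427 on the treated and 1277, 843 and 1135 on the mock arrays, a log2 fold change of -1.01 (SE 0.17, adjusted p in limma = 0.00492).

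PLK2, a polo-like kinase, and BTG1, an antiproliferative gene, rose by 0.87 (SE 0.10) and 0.59 (SE 0.08) on the log2 scale. The other calls were named after their values were seen. JUND, the JUN family member that is least dependent on growth factor signals, and ZFP36L1, a destabiliser of AU-rich messages, had log2 fold changes of 0.43 (SE 0.08) and 0.47 (SE 0.08). CCN1, a matricellular protein, and NFKBIA, the inhibitor of NF-kB, had -0.34 (SE 0.08) and -0.32 (SE 0.09). CCN1 lost its call in 5 and NFKBIA in 7 of the 13 alternatives, among them leaving out treated replicate 2 or 3 or mock replicate 1 for each.

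The AP-1 partners with a basic leucine zipper included 3 genes that rose among 9 tested, beside 6.49% higher and 6.64% lower over all genes. None fell in limma's test, or at an unadjusted p under 0.05, and the median log2 fold change was 0.43. JUND had 3723, 3756 and 4142 on the treated arrays, against 2823, 3080 and 2720 on the mock arrays, without overlap. JUND and ATF3 stand in both lists, and ATF4, the effector of the integrated stress response, rose by 0.54 (SE 0.12, adjusted p in limma = 0.0145), a call lost without the intensity trend (0.0583). Of the FOS and JUN families, each gene read through 1 probe set at 12 h, FOSL1 fell, JUND rose, and FOS, FOSB, FOSL2, JUN and JUNB did not pass.

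Of 16 tested genes known as AP-1 targets in fibroblasts, 7 fell, 9 did not pass and none rose in limma's test (1 was higher and 8 were lower at an unadjusted p under 0.05). The median log2 fold change was -0.16, and the shares over all genes tested were 6.49% higher and 6.64% lower. MMP3, or stromelysin, fell by 2.11 (SE 0.22), reading 64.5, 103 and 59.3 in treated cells and 328, 319 and 305 in mock cells. The treated mean of 75.6 was under the filter limit, so the size of this fall is uncertain. PTGS2, or cyclooxygenase, had a log2 fold change of -1.04 (SE 0.18, adjusted p in limma = 0.00593), PLAU, or urokinase, of -0.72 (SE 0.08, adjusted p in limma = 0.000467) and CCND1, the G1 cyclin, of -0.64 (SE 0.10, adjusted p in limma = 0.00307). MMP1, PLAUR and LOX, named after their values were seen, had -0.61 (SE 0.08), -0.45 (SE 0.09) and -0.22 (SE 0.06). All but LOX kept their call in every alternative that tested them, while LOX lost it in 8, among them leaving out any 1 treated array. Genes of this list also answer to other factors, and it was chosen with earlier results of these data known.

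**Figure D4:**
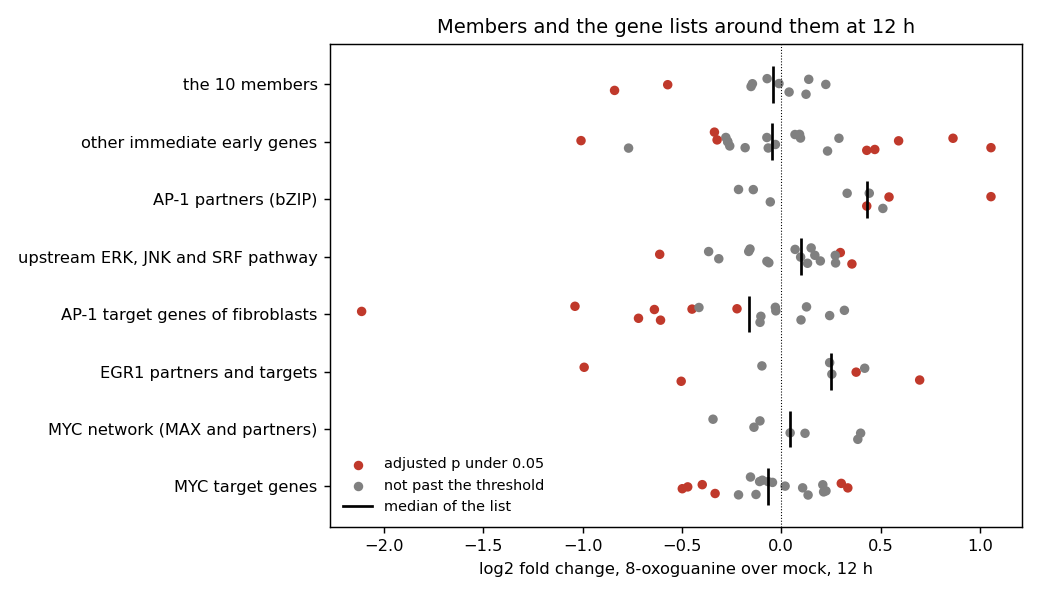
Log2 fold change at 12 h, 8-oxoguanine over mock, of the 10 members and of the genes in each list, 1 probe set per gene; red points passed an adjusted p of 0.05, vertical bars are list medians and vertical scatter has no meaning. Red points lie left of 0 for the AP-1 target genes and right of 0 for the AP-1 partners.

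Of 17 tested genes of the ERK, JNK and SRF pathway above these genes, 2 rose, 1 fell and 14 did not pass, beside 6.49% higher and 6.64% lower over all genes. None of the 3 calls was kept without the intensity trend in limma. MAP2K1, the ERK kinase MEK1, read 1031, 972 and 1064 in treated cells and 2020, 1399 and 1349 in mock cells, a log2 fold change of -0.61 (SE 0.14, adjusted p in limma = 0.0183). The groups were apart, but mock replicate 1 stood far above the other 2 mock arrays, and the call was lost without treated replicate 1 or 2. PDGFRA and PDGFRB, receptors for platelet-derived growth factor, rose by 0.36 (SE 0.08) and 0.30 (SE 0.08). The PDGFRA call was lost without treated replicate 2 or mock replicate 1 or 3, and the PDGFRB call without any 1 array but mock replicate 2, with no filter and with the replicate number as a block.

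Among EGR1's partners and targets, 2 of 8 tested genes rose and 2 fell, beside 6.49% higher and 6.64% lower over all genes. F3, tissue factor, had a log2 fold change of -0.99 (SE 0.20, adjusted p in limma = 0.0107), with 593, 510 and 328 on the treated and 980, 774 and 1031 on the mock arrays. TGFB1 had -0.50 (SE 0.07, adjusted p in limma = 0.00195) and ICAM1, an adhesion receptor, 0.70 (SE 0.13, adjusted p in limma = 0.00877). NAB1, a corepressor of EGR1, had 0.38 (SE 0.11, adjusted p in limma = 0.0486). It lost its call in 10 of the 13 alternatives. These were leaving out any 1 array, median centring, quantile normalization, no filter and the replicate number as a block.

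None of the 7 tested genes of the MYC network passed in limma's test, and 1 was higher and 1 lower at an unadjusted p under 0.05. The largest changes were those of PIM1, a kinase that cooperates with MYC, and MNT, a MAX-binding repressor, at 0.40 (SE 0.15, adjusted p = 0.109) and 0.39 (SE 0.29, adjusted p = 0.429), and MNT passed without mock replicate 2 (0.0344). Of 19 tested MYC targets, 2 rose, 4 fell and 13 did not pass, with a median log2 fold change of -0.07. Beside both lists, the shares over all genes tested were 6.49% higher and 6.64% lower. HSPE1, a mitochondrial co-chaperonin, had -0.50 (SE 0.11), NME1, a nucleoside diphosphate kinase, -0.47 (SE 0.08), PHB1, or prohibitin, -0.40 (SE 0.07) and CCND2, a G1 cyclin, 0.34 (SE 0.07). Without treated replicate 1, or without the intensity trend, the counts were 0 higher and 2 lower, as HSPE1, CCND2, SRM and SHMT2 lost their calls and NME1 and PHB1 kept them. SRM and SHMT2 are named after their values were seen.

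At 6 h the lists were read without a test. Among other immediate early genes 9 of 19 were above 0, and 2 were past 1.5-fold as higher. These were ZFP36, which encodes tristetraprolin, and CCN2, named after their values were seen. Their log2 ratios were 1.03 and 0.63, or 1.13 and -0.08 after quantile normalization. Past 1.5-fold as higher were also 3 of 18 AP-1 targets, 5 of 25 MYC targets and 1 of 9 EGR1 partners and targets. As lower there were 1 of 7 AP-1 partners and 1 of 11 MYC network genes. Over all 6705 genes kept, 199 were past it as higher and 298 as lower. Of the AP-1 targets 14 of 18 were above 0 and of the MYC targets 21 of 25, against 47.3% of all genes kept, without added scaling. The medians were 0.21 and 0.29, against -0.02 over all genes kept. After quantile normalization the medians were 0.04 and 0.09, against 0.03 over all genes kept. Of the AP-1 partners 3 of 7 were above 0, with a median of -0.20 (-0.11 after quantile normalization). ATF2, a partner of JUN named after its value was seen, had -1.18 through a probe set other than the one read at 12 h. Of the MYC network 5 of 11 were above 0, with a median of -0.04 (0.05 after quantile normalization), and MNT had -0.66. The pathway genes had 13 of 21 above 0 and EGR1 partners and targets 5 of 9, with medians of 0.07 and 0.0021. The AP-1 targets that fell at 12 h had 6 h log2 ratios of 0.14 for MMP3, 0.36 for PLAU, 0.20 for MMP1, 0.02 for PLAUR, 0.46 for LOX (through another probe set), -0.05 for CCND1 and -0.27 for PTGS2. After quantile normalization they were at 0.13 for MMP3, 0.21 for PLAU, -0.13 for MMP1, 0.01 for PLAUR, 0.0033 for LOX, -0.21 for CCND1 and -0.18 for PTGS2.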

How the data were processed

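Total RNA of MRC5 cells was labelled with biotin and read on single-colour short-oligonucleotide arrays, of one type at 6 h and of a smaller type at 12 h. The authors deposited 1 linear intensity per probe set and array, with MAS5 named in the submitters' processing notes. Which version was run is not given in the sources used here. Array means without the lowest and highest 2% were 500.1 to 500.5, so the arrays had been scaled. Precision is limited by the number of arrays, and the 12 h labels name extracts but no separate cultures.

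The deposited intensities were turned into log2 with no added scaling. Controls were dropped, as were those under the 40th percentile of mean log2 at 12 h (3498 of 8746) and under the 50th at 6 h (11107 of 22215). At 12 h treated and mock arrays were tested by limma 3.58.1 under R 4.3.3 (eBayes with intensity trend, two-sided, Benjamini-Hochberg over all 5248 probe sets, threshold 0.05). The test was first run on simulated arrays, whose noise was independent between arrays. That check cannot show how the test behaves on extracts that share a culture. Every adjusted p is from the limma fit of the deposited 12 h arrays with these settings, except those given for an alternative. The 6 h ratios had no test. Names came from the platform annotation; RefSeq (GRCh38.p14) changed none of them. Lists used the brightest kept probe set of a gene. All members were named, and of each list up to 4 genes with the largest change past the threshold, or 2 where none passed. The members and lists were chosen with earlier results of these data known. Alternatives were median centring, quantile normalization, no and stricter filters, a constant before log2, the replicate number as a block, no intensity trend, the mean of probe sets for list medians, and leaving out each 12 h array.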

Additional observations from a re-analysis of the deposited data

Results flagged for a closer look

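IER3 and FOSL1 were picked out because every 12 h array of treated cells lay below every mock array, while the treated array stood above the mock array at 6 h. IER3 had a log2 fold change of -0.839 at 12 h and a log2 ratio of 0.300 at 6 h. FOSL1 had -0.572 at 12 h and 0.0747 at 6 h. No test of the change with time was made, since the 6 h arrays had no replicates and were of another type. For IER3 the 6 h ratio lay between 0.297 and 0.415 under the alternatives, and for FOSL1 between 0.0741 and 0.190.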

How the results depend on the processing

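The number of probe sets called at 12 h was 371 to 649 when 1 array was left out, against 695 with all, with 371 without treated replicate 1, 386 without treated replicate 2 and 451 without mock replicate 3. The replicate number as a block gave 513 calls, and the same 2 members. Deviations of same-numbered arrays correlated at 0.08, -0.15 and -0.05, and those of differently numbered arrays between -0.18 and 0.20. With 3 arrays per group this check cannot decide whether the numbers pair the samples. The members called lower numbered 2 under all 13 alternatives, and those called higher 0 to 1 when 1 array was left out, the 1 being FOS without mock replicate 2. Called genes over all lists numbered 29, and 18 without the intensity trend; 17 of the 29 kept their call in every alternative that tested them. FOSL2 turned positive at 12 h without treated replicate 3 or mock replicate 2 or 3, ranging between -0.16 and 0.0877 with 1 array left out, and JUN without treated replicate 3 or mock replicate 2, ranging between -0.23 and 0.0538. At 6 h, no filter put 1 member probe set, that of FOSB, past 1.5-fold. The median log2 ratio over all lists was 0.14, and 0.25 with median centring and 0.0276 with quantile normalization. Median centring turned the ratios of EGR1 (0.0289 and 0.0753) and of the dimmest JUN probe set (0.0019), and the medians of other immediate early genes (0.11) and the MYC network (0.0722). Quantile normalization turned the weaker EGR1 probe set (0.0418), EGR1 partners and targets (-0.0172) and the MYC network (0.0501). The stricter filter turned other immediate early genes (0.0243), and the mean of probe sets the MYC network (0.0714). The cause of these changes was not tested.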
